A study of Mus musculus with 10 samples.

Results

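Complex I (NADH:ubiquinone oxidoreductase) is described here through the mRNAs of its subunits in mouse small-intestinal epithelial cells. Members were the rows of the deposited expression table whose gene symbol starts with mt-Nd or Nduf, and 53 of 24839 rows qualified, with 0 further rows left out as pseudogenes. They comprised 7 core subunits encoded in the mitochondrial genome, 7 core and 29 accessory subunits encoded in the nucleus, 8 assembly factors with Ndufaf symbols, and Ndufa4 with its paralogue Ndufa4l2. The last pair is given apart, since Ndufa4 is known as a subunit of cytochrome c oxidase (complex IV) despite its symbol. "Nuclear subunits" below are the 36 core and accessory members without this pair and without the assembly factors.

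RNA of small-intestinal epithelial cells had been sequenced after poly(A) selection in 10 samples, 5 titled NCD and 5 titled HCD, the high cellulose diet. The labels give neither a strain nor a genotype (the genotype field reads "cell type"), and the sources do not spell out NCD. In the described design, mice ate either diet for 60 days, and the allergic groups were injected into the peritoneum with 50 µg of the egg white allergen ovalbumin (OVA) and 1 mg of alum on days 0 and 14, then given 5 oral doses of 50 mg of OVA. Saline replaced this in the other groups. All NCD libraries carry the treatment label untreated and all HCD libraries the label OVA treatment, so diet and OVA cannot be told apart in any difference below. The library numbers follow the groups as well (1, 2, 3, 9 and 10 in NCD; 11, 12, 13, 19 and 20 in HCD), and the effect of any handling tied to them cannot be told apart either. The labels do not say whether each library came from a separate mouse, so p-values measure the spread between these libraries only.

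Complex I is the entry point of the respiratory chain: it takes electrons from NADH in an arm that reaches into the mitochondrial matrix, passes them along iron-sulfur clusters to ubiquinone, and pumps protons through an arm buried in the inner membrane. The proton-pumping core is made inside the mitochondrion from the mt-Nd mRNAs, while the remaining subunits are made in the cytosol from nuclear mRNAs and imported, so that the enzyme can only be built from the products of both genomes. Absorptive cells of the small intestine are rich in mitochondria, whose ATP drives the uptake of nutrients.

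Values are FPKM, fragments scaled by the submitters to the length of the transcript and to the mapped fragments of the library. FPKM is a share of the library, so abundant transcripts lower all others, and each comparison is given on both scales: as deposited, and rescaled so that every library has the same summed FPKM over the genes that are not mitochondrially encoded. A gene passed when the adjusted p of limma, fitted to log2(FPKM + 1) over all 10321 rows with a mean of at least 1 FPKM and adjusted by Benjamini-Hochberg over all of them, was under 0.05. Errors of mean FPKM are SD over 5 libraries, differences are HCD minus NCD in log2(FPKM + 1), with their SE, and folds are ratios of mean FPKM. Of the 53 members, 52 were tested. Ndufa4l2 was not, being listed at 0 in 7 of 10 libraries and at 0.567, 0.0926 and 0.212 FPKM in NCD replicates 1 and 3 and HCD replicate 2.

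The mt-Nd mRNAs and the nuclear Nduf mRNAs moved in opposite directions. All 7 mt-Nd mRNAs were higher in HCD on both scales, by a median of 2.12 as deposited and 2.29 after rescaling. Among all rows tested, 7.13% were called higher as deposited and 9.07% after rescaling. Of the 36 nuclear subunits, 0 were called higher on either scale, 19 (52.8%) were called lower as deposited and 9 (25.0%) after rescaling, against 19.2% and 8.34% of all rows tested. Their median difference was -0.42 as deposited and -0.25 after rescaling, while the median of all rows tested was -0.19 and -0.05. The difference was below 0 in 36 of 36 nuclear subunits as deposited, in 32 after rescaling and in 28 after quantile normalization, and the 4 that changed sign under rescaling (Ndufb7, Ndufa2, Ndufa13 and Ndufa3) passed on neither scale. Of all 10321 rows tested, 7029 were below 0 as deposited and 5700 after rescaling.

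**Figure D1:**
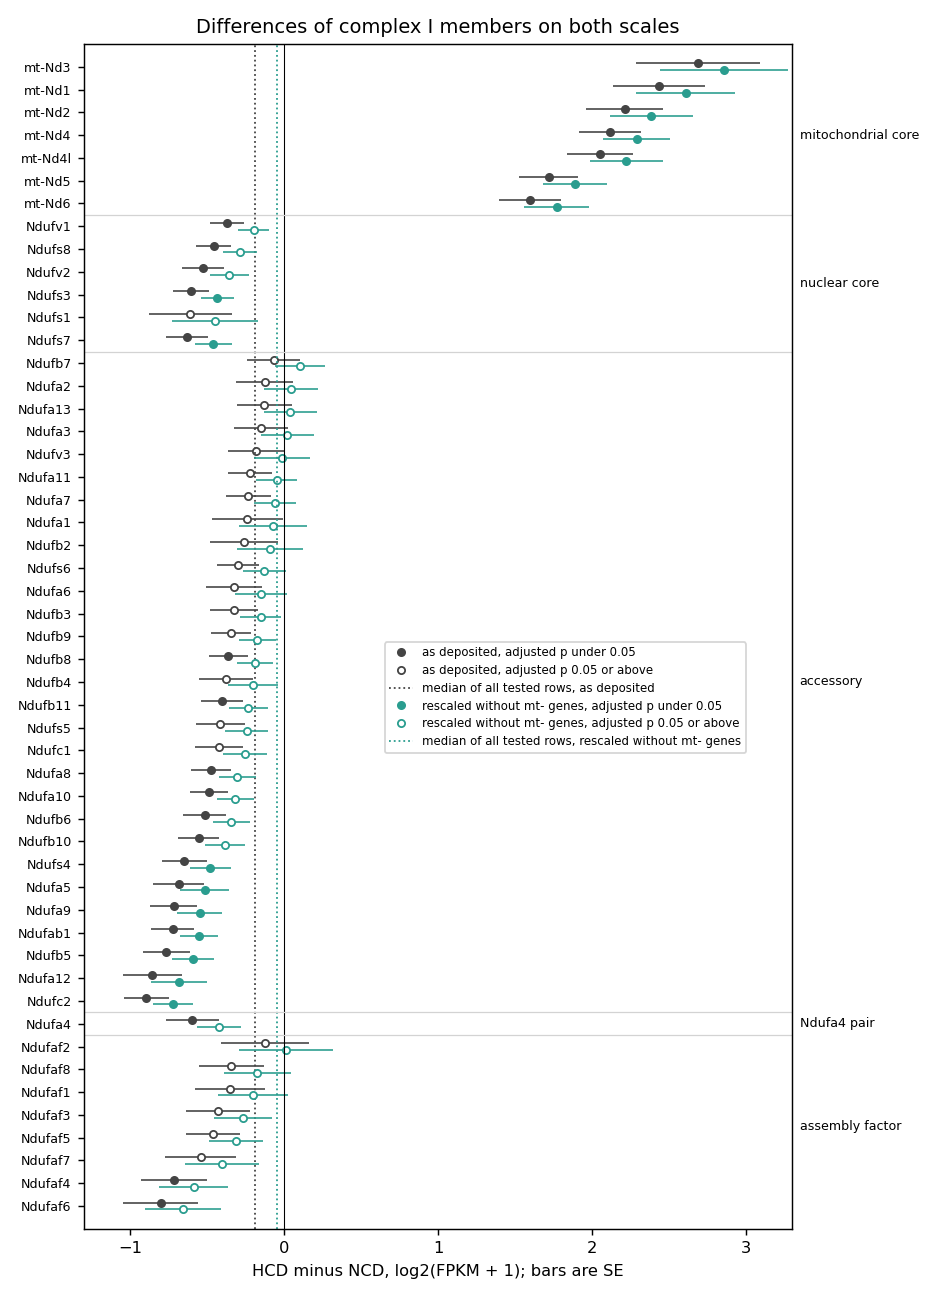
Difference HCD minus NCD in log2(FPKM + 1) for tested members, sorted by size within each role; points are limma estimates from 5 NCD and 5 HCD libraries, bars are SE, filled points have an adjusted p under 0.05, and dotted lines mark the median of all 10321 rows on each scale. The 7 mt-Nd mRNAs lie between 1.60 and 2.69 as deposited, and every nuclear subunit and assembly factor lies below 0 as deposited, while Ndufb7, Ndufa2, Ndufa13, Ndufa3 and Ndufaf2 lie above 0 after rescaling.

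The sums of the members in each library showed the same contrast without any fit. The summed mt-Nd FPKM was 3083, 2970, 3495, 4636 and 3650 in NCD replicates 1 to 5 and 26518, 17012, 10779, 11036 and 12922 in HCD replicates 1 to 5. Its mean went from 3567 ± 661 to 15653 ± 6565, 4.39-fold. HCD replicate 1 was the highest library, and the lowest HCD library was still above the highest NCD library. The 36 nuclear subunits summed to 6904, 6485, 5248, 6816 and 5832 FPKM in NCD replicates 1 to 5 and to 4892, 4419, 4980, 4969 and 3912 FPKM in HCD replicates 1 to 5. All 5 HCD sums were below all 5 NCD sums, although the highest HCD sum (4980) came close to the lowest NCD sum (5248, NCD replicate 3). As a share of all FPKM outside the mitochondrially encoded genes, nuclear subunits took 1.16% ± 0.0861 in NCD and 0.969% ± 0.0985 in HCD, with overlapping ranges of 1.02% to 1.23% and 0.823% to 1.09%.

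The ratio of summed mt-Nd to summed nuclear subunit FPKM does not depend on the scaling of a library. It was 0.447, 0.458, 0.666, 0.6803 and 0.626 in NCD replicates 1 to 5, so that nuclear transcripts outweighed mitochondrial ones in each NCD library. In HCD replicates 1 to 5 it was 5.42, 3.85, 2.16, 2.22 and 3.303, and the mitochondrial transcripts outweighed the nuclear ones in each. The mean log2 ratio was -0.82 ± 0.30 in NCD and 1.67 ± 0.56 in HCD, a difference of 2.50. The members were chosen with earlier results of these libraries known, and no p-value is given for sums or ratios over them.

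**Figure D2:**
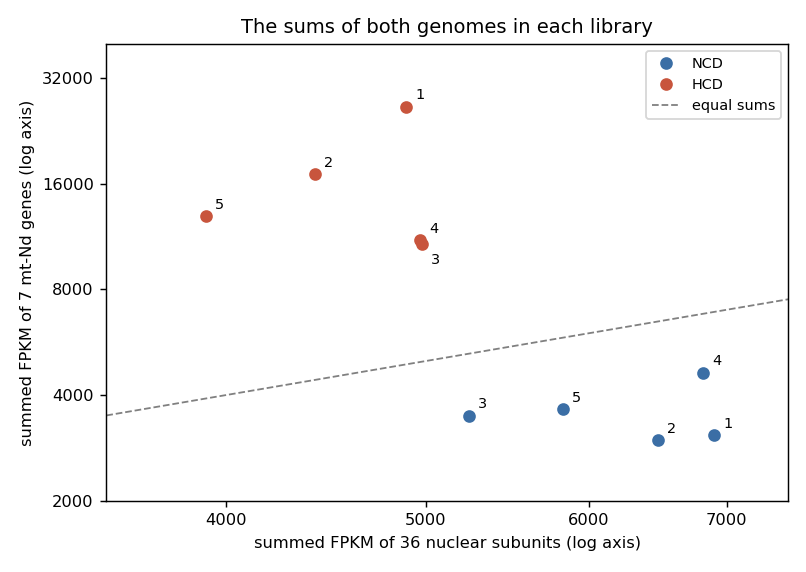
Summed FPKM of the 7 mt-Nd genes against summed FPKM of the 36 nuclear subunits, 1 point per library with its replicate number, both axes on a log scale; the dashed line marks equal sums. The 5 NCD libraries lie below the line, at ratios of 0.447 to 0.6803, and the 5 HCD libraries above it, at 2.16 to 5.42.

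Other features of the libraries moved with these sums. Mitochondrially encoded genes took 4.53% ± 1.11 of FPKM in NCD and 19.4% ± 5.89 in HCD, with 29.5% in HCD replicate 1. Epithelial markers were abundant in both groups, as the labelled cell type has them (Krt8 at 3808 ± 226 and 2646 ± 509.8 FPKM). Of those listed, 6 of 11 passed as lower in HCD as deposited and 4 after rescaling. Krt20 and Fabp2 passed as higher on both scales. Among all rows tested, 19.2% and 8.34% passed as lower on these scales, and 7.13% and 9.07% as higher. The summed level of the epithelial markers was 14055 to 14814 FPKM in NCD and 11037 to 14272 FPKM in HCD. All 11 markers of T cells and intraepithelial lymphocytes were higher in HCD, summing to 284 to 903 FPKM in NCD and 1899 to 3780 FPKM in HCD, and so were all 4 haemoglobin genes, at 15.1 to 41.8 and 96.6 to 391 FPKM. B and plasma cell markers overlapped between the groups (23.6 to 141 against 72.7 to 105 FPKM), with 1 of 5 tested higher as deposited and 2 after rescaling. Myeloid markers overlapped too (19.5 to 51.9 against 37.6 to 68.0 FPKM), with 1 of 6 higher on both scales. Stromal, endothelial and muscle markers were low but separated the groups, at 3.64 to 4.50 FPKM in NCD and 4.60 to 8.12 FPKM in HCD. Of the 2 of 9 tested, the endothelial marker Pecam1 was higher in HCD (2.06 ± 0.271 to 4.22 ± 1.37 FPKM, adjusted p = 0.0188) and Tagln did not pass, with Col1a1, Col1a2, Col3a1, Dcn and Myh11 at or near 0 in both groups. Markers of enteric neurons and glia summed to at most 1.204 FPKM, with Elavl4 at 0 in all 10 libraries. HCD replicate 1 was highest both in T cell markers and in mt-Nd, and NCD replicate 4 was the highest NCD library in both (903 and 4636 FPKM). HCD replicate 3 was second highest in T cell markers (3381 FPKM) and the lowest HCD library in mt-Nd. The part of these cells in the differences of complex I mRNAs was not tested, and in such bulk libraries fewer cells of a type and less of an mRNA per cell cannot be told apart.

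The mitochondrially encoded subunits lie in the membrane arm, and their genes are packed on the circular genome with little space between them. Neighbouring members even share bases, which bears on how their fragments can be divided. The reference sequence (GRCm38, mitochondrial genome, plus strand, 5′ to 3′) of both shared stretches among members is given with 20 flanking bases on each side, the bases annotated to both genes being in capitals. The first, chrM:10147-10193, is where mt-Nd4l ends and mt-Nd4 begins, and the second, chrM:13532-13585, is where mt-Nd5 and mt-Nd6, which is read from the opposite strand, run into each other.
mt-Nd4l/mt-Nd4: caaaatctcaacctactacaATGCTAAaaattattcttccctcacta
mt-Nd5/mt-Nd6: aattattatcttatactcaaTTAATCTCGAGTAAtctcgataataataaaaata
The capitals of the first hold the start of mt-Nd4 in a different reading frame from the end of mt-Nd4l, and the pair is known to be carried on a single mRNA. The shared stretches are 7 and 14 bases long, short against the genes themselves.

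mt-Nd1 (chrM:2751-3707, plus strand), the subunit beside the ubiquinone site, measured 520.3, 426, 637, 946 and 747 FPKM in NCD replicates 1 to 5 and 7349, 3886, 2206, 2489 and 2967 FPKM in HCD replicates 1 to 5. HCD replicate 1 was far above the next library, and the groups did not overlap. It rose from 655 ± 203 FPKM in NCD to 3779 ± 2095 FPKM in HCD, a difference of 2.44 ± 0.30 (adjusted p = 0.000172). mt-Nd2 (chrM:3914-4951), a proton-channel subunit related to bacterial antiporters, measured 398, 445, 561, 787 and 654 FPKM in NCD replicates 1 to 5 and 4062, 3241, 1596, 2103 and 2504 FPKM in HCD replicates 1 to 5. Its HCD libraries were all above its NCD libraries, with the smallest gap at HCD replicate 3, and the difference was 2.21 ± 0.25 (adjusted p = 0.000115).

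mt-Nd3 (chrM:9459-9806), a small subunit whose matrix loop shifts between the active and the resting enzyme, measured 103, 118, 99.1, 209 and 153 FPKM in NCD replicates 1 to 5 and 3138, 659, 682, 489.8 and 633 FPKM in HCD replicates 1 to 5. HCD replicate 1 stood far above the other 4 HCD libraries, which themselves lay above all NCD libraries. The difference was 2.69 ± 0.40 (adjusted p = 0.000656), 8.23-fold in mean FPKM, and without HCD replicate 1 it was 2.22 ± 0.21 (adjusted p = 0.000134), 4.52-fold. Without the same library mt-Nd1 differed by 2.16 ± 0.23, so that the gap between these members rested on HCD replicate 1.

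mt-Nd4l (chrM:9877-10173), a small membrane subunit next to mt-Nd6, measured 120.5, 142, 169, 166 and 165 FPKM in NCD replicates 1 to 5 and 1088, 719, 418, 523 and 578 FPKM in HCD replicates 1 to 5. mt-Nd4 (chrM:10167-11544), another proton-channel subunit, measured 533, 494, 578, 833 and 613 FPKM in NCD replicates 1 to 5 and 3977, 2950.5, 1913, 2218 and 2413 FPKM in HCD replicates 1 to 5. Neither showed an overlap between groups, and the differences were 2.05 ± 0.21 for mt-Nd4l (adjusted p = 8.32e-05) and 2.12 ± 0.20 for mt-Nd4 (adjusted p = 7.05e-05). The FPKM of mt-Nd4 was 4.01 ± 0.69 times that of mt-Nd4l in NCD and 4.15 ± 0.33 times in HCD, a ratio that overlapped between the groups (3.43 to 5.03 and 3.65 to 4.58).

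mt-Nd5 (chrM:11742-13565), the proton-channel subunit at the far end of the membrane arm, measured 543, 609, 642, 662 and 589.9 FPKM in NCD replicates 1 to 5 and 3046, 2489, 1659, 1416 and 1804 FPKM in HCD replicates 1 to 5. Its NCD libraries stayed within 543 to 662 FPKM, the groups did not overlap, and it rose by 1.72 ± 0.19 (adjusted p = 0.000108). mt-Nd6 (chrM:13552-14070, minus strand), the only mt-Nd member on the opposite strand, measured 866, 737, 809, 1033 and 728 FPKM in NCD replicates 1 to 5 and 3858, 3069, 2305, 1796 and 2023 FPKM in HCD replicates 1 to 5. It had the smallest difference of the mt-Nd members, 1.60 ± 0.20 (adjusted p = 0.000208), again with no overlap. The strand setting of the counting is not given in the sources used here, so fragments of mt-Nd6 cannot be told apart from RNA read from the other strand over the same bases. In human cells this mRNA is known to lack a poly(A) tail. Its FPKM in these poly(A)-selected libraries was 1.37 ± 0.19 times that of mt-Nd5 in NCD and 1.26 ± 0.10 times in HCD.

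**Figure D3:**
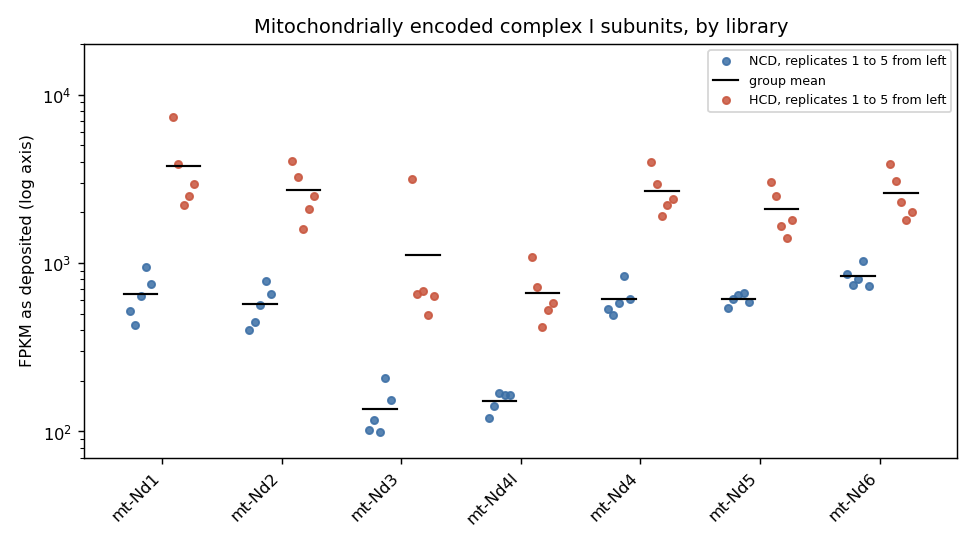
FPKM of the 7 mitochondrially encoded members in each library on a log axis, in their order along the genome; points are libraries, replicates 1 to 5 from left to right within a group, and black bars are group means. For each gene all 5 HCD libraries lie above all 5 NCD libraries, and HCD replicate 1 stands out for mt-Nd3 at 3138 FPKM.

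All 7 mt-Nd members thus had every HCD library above every NCD library, on both scales, where 4.53% of all rows did so as deposited and 6.64% after rescaling. The call held for all 7 when any of the 10 libraries was left out. As deposited the median difference was 2.40 within replicates 1 to 3 alone and 1.68 within replicates 4 and 5 alone, where 6 of 7 passed, mt-Nd6 being the exception. After rescaling these medians were 2.59 and 1.83, and all 7 passed in both. Nuclear pseudogenes with at least 90% identity over at least 200 bases exist for 6 of the 7 (all but mt-Nd1), among them Gm28439 on chromosome 1, identical to mt-Nd4 over 876 bases, and Gm10222 on chromosome 1, identical to mt-Nd4l over 294 bases. None of these copies has a row under its own identifier among the deposited values. How the submitters' counting divided fragments between the mt-Nd members and their copies is not given in the sources used here.

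The other mitochondrially encoded mRNAs rose alongside. All 6 passed as higher on both scales, with a median difference of 2.18 as deposited. mt-Co2 rose by 2.27, mt-Co3 by 2.24 (both subunits of cytochrome c oxidase) and mt-Atp6, a proton-channel subunit of ATP synthase, by 2.18 (adjusted p = 0.000172, 0.000172 and 0.000189). The mt-Nd members as a group kept about the same share of all mitochondrially encoded mRNA, 16.4%, 14.7%, 13.6%, 13.6% and 12.4% in NCD replicates 1 to 5 and 14.2%, 15.4%, 11.9%, 11.9% and 12.98% in HCD replicates 1 to 5. The means, 14.2% ± 1.498 and 13.3% ± 1.52, differed by less than the spread within a group.

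Within that share the members were not fixed to each other, but none separated the groups. mt-Nd6 took 4.61%, 3.66%, 3.14%, 3.04% and 2.48% in NCD replicates 1 to 5 and 2.06%, 2.78%, 2.55%, 1.93% and 2.03% in HCD replicates 1 to 5. The means were 3.39% ± 0.802 and 2.27% ± 0.370, with an overlap because of NCD replicate 5. mt-Nd5 had means of 2.47% ± 0.491 and 1.81% ± 0.279, mt-Nd1 of 2.54% ± 0.272 and 3.11% ± 0.612, and both overlapped too. mt-Nd2 and mt-Nd4 took between 1.76% and 2.93% in every library. mt-Nd3 took 0.385% to 0.613% in NCD and 0.527% to 0.753% in 4 HCD libraries, but 1.68% in HCD replicate 1.

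**Figure D4:**
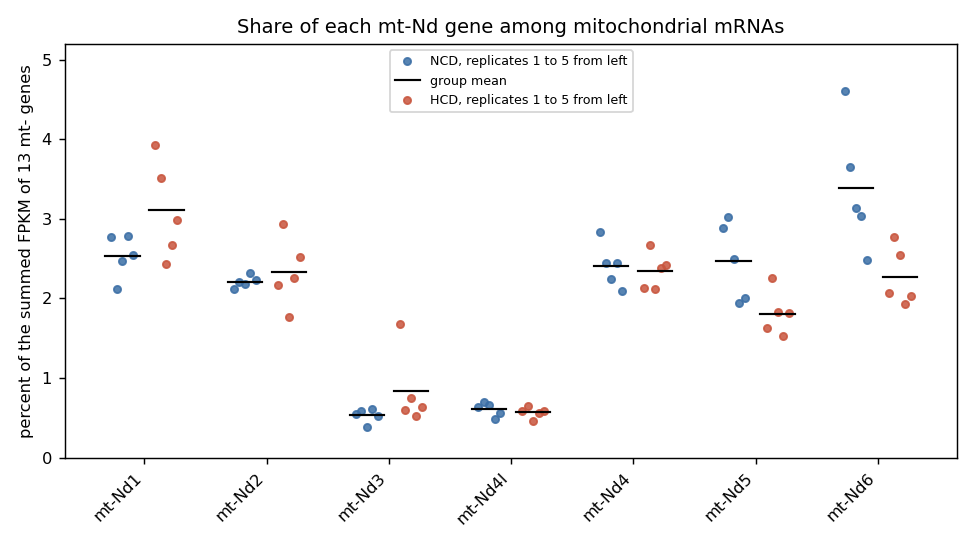
Each mt-Nd gene as a percent of the summed FPKM of the 13 mitochondrially encoded mRNAs in its library; points are libraries, replicates 1 to 5 from left to right within a group, and black bars are group means. The groups overlap for all 7 genes, and HCD replicate 1 stands out for mt-Nd3 at 1.68%.

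The nuclear core subunits carry the electron path. Ndufv1, Ndufv2 and Ndufs1 oxidise NADH, while others, among them Ndufs3, Ndufs7 and Ndufs8, lead on to ubiquinone. Of these 6, Ndufs1 did not pass and the other 5 passed as lower in HCD as deposited, and Ndufs3 and Ndufs7 passed after rescaling as well. Among all rows tested, 19.2% were called lower as deposited and 8.34% after rescaling. Every HCD library lay below every NCD library for 4 of the 6 as deposited, where 12.9% of all rows tested did so, and for 2 of the 6 after rescaling, where 5.99% did.

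Ndufv1 (chr19:4007384-4012806, minus strand), which binds NADH and the flavin, measured 264, 258, 245, 241 and 221 FPKM in NCD replicates 1 to 5 and 177, 204, 203, 191 and 175 FPKM in HCD replicates 1 to 5. The groups did not overlap, and the gene had the smallest difference of the 6, -0.37 ± 0.11 as deposited (adjusted p = 0.0220). It did not pass after rescaling (-0.20 ± 0.10, adjusted p = 0.199), nor as deposited without NCD replicate 1 (adjusted p = 0.0572). Ndufv2, its iron-sulfur partner, went from 122 ± 17.5 FPKM in NCD to 84.3 ± 11.1 FPKM in HCD, with an overlap because of NCD replicate 2 (97.4 FPKM) and HCD replicate 3 (102 FPKM). Its difference passed as deposited (-0.53 ± 0.13, adjusted p = 0.0114) and not after rescaling (-0.36 ± 0.12, adjusted p = 0.0639).

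Ndufs1 (chr1:63143596-63176833, minus strand), the large iron-sulfur subunit of the NADH-oxidising part, measured 24.5, 12.7, 24.2, 17.2 and 24.6 FPKM in NCD replicates 1 to 5 and 8.09, 25.4, 9.59, 15.0 and 11.2 FPKM in HCD replicates 1 to 5. It varied more within each group than its partners and the groups overlapped, since HCD replicate 2 was the highest of all 10 libraries. The difference of -0.61 ± 0.27 did not pass (adjusted p = 0.110), although it did without NCD replicate 2 or without HCD replicate 2 (lowest adjusted p = 0.0183). Among the 36 nuclear subunits, Ndufs1 had the lowest mean level in NCD, 20.6 FPKM, against a median of 145 FPKM and 487 FPKM for Ndufb9, the highest.

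Ndufs7 (chr10:80249121-80256794, plus strand), which holds the last iron-sulfur cluster before ubiquinone, measured 448, 367, 310.0, 425 and 321 FPKM in NCD replicates 1 to 5 and 226, 244, 253, 271 and 203 FPKM in HCD replicates 1 to 5. No HCD library reached the NCD range, and Ndufs7 had the largest fall of the 6, -0.63 ± 0.14 as deposited (adjusted p = 0.00517) and -0.46 ± 0.12 after rescaling (adjusted p = 0.0189). The rescaled call was lost without NCD replicate 1 (adjusted p = 0.0534). Ndufs3 (chr2:90894634-90904827, minus strand), a scaffold of the ubiquinone-side part, measured 209, 184, 179, 183 and 166 FPKM in NCD replicates 1 to 5 and 119.8, 115, 136, 132 and 102 FPKM in HCD replicates 1 to 5. The groups were apart on both scales, and the fall passed on both, -0.61 ± 0.12 as deposited (adjusted p = 0.00287) and -0.44 ± 0.11 after rescaling (adjusted p = 0.0133), also when any single library was left out. A pseudogene, Gm12251 on chromosome 11, is 98.6% identical to Ndufs3 over 792 bases and has no row under its own identifier among the deposited values.

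Ndufs8, which holds a pair of iron-sulfur clusters, measured 245, 223, 194, 232 and 233 FPKM in NCD replicates 1 to 5 and 158, 158, 159, 192 and 151 FPKM in HCD replicates 1 to 5. HCD replicate 4 stood above the other HCD libraries and just below NCD replicate 3, so that the groups were barely apart. The difference was -0.46 ± 0.11 as deposited (adjusted p = 0.0106) and -0.29 ± 0.11 after rescaling (adjusted p = 0.0847).

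**Figure D5:**
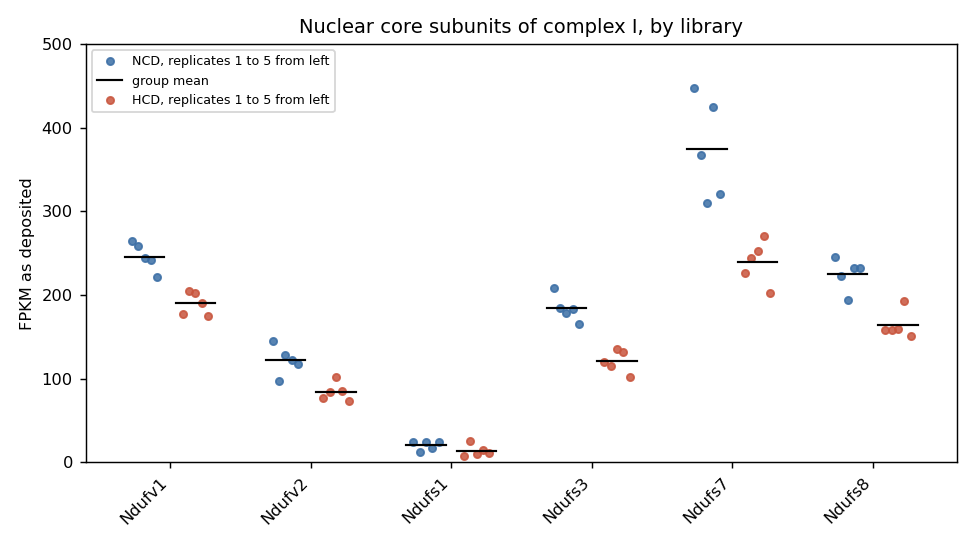
FPKM of nuclear core subunits in each library, for the 6 described here; points are libraries, replicates 1 to 5 from left to right within a group, and black bars are group means. For Ndufv1, Ndufs3, Ndufs7 and Ndufs8 all HCD libraries lie below all NCD libraries, while Ndufv2 and Ndufs1 overlap.

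The 29 accessory subunits surround the core and are needed for its assembly and stability. As deposited 13 passed as lower in HCD, after rescaling 7 did (Ndufa5, Ndufa9, Ndufa12, Ndufab1, Ndufb5, Ndufc2 and Ndufs4), and 0 passed as higher on either scale. The median difference was -0.38 as deposited and -0.20 after rescaling, with a range from -0.90 to -0.07 as deposited. By symbol, 6 of 13 Ndufa members (Ndufab1 included), 5 of 10 Ndufb members and 1 of 2 Ndufc members passed as deposited, and 4, 1 and 1 after rescaling. Groups without overlap were found for 10 of 29 as deposited and 6 of 29 after rescaling. Among all rows tested, 19.2% and 8.34% were called lower, and 12.9% and 5.99% had groups without overlap in this direction.

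Ndufc2 (chr7:97400003-97407802, plus strand), a membrane-arm subunit, measured 268, 216, 212, 256 and 197 FPKM in NCD replicates 1 to 5 and 128, 107, 156, 132 and 96.9 FPKM in HCD replicates 1 to 5. The highest HCD library, replicate 3, stayed well under the lowest NCD library, replicate 5, and the fall was the largest of all nuclear subunits, -0.90 ± 0.15 as deposited (adjusted p = 0.00104) and -0.72 ± 0.13 after rescaling (adjusted p = 0.00196). Ndufab1 (chr7:122085403-122101886, minus strand), the acyl carrier protein that also serves mitochondrial fatty acid synthesis, measured 147, 123, 117, 132 and 109 FPKM in NCD replicates 1 to 5 and 65.7, 73.2, 91.7, 89.3 and 61.2 FPKM in HCD replicates 1 to 5. It fell without overlap by -0.73 ± 0.14 (adjusted p = 0.00291) as deposited and -0.55 ± 0.12 (adjusted p = 0.00724) after rescaling. The pseudogenes Gm4459 and Ndufab1-ps on chromosome 7 are 99.8% and 99.4% identical to it over 468 and 469 bases, so that its FPKM is uncertain.

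Ndufb5 (chr3:32736990-32751566, plus strand), a membrane-arm subunit, measured 209, 175, 162, 162 and 126 FPKM in NCD replicates 1 to 5 and 97.1, 88.0, 122, 102 and 79.4 FPKM in HCD replicates 1 to 5. NCD replicate 5 was the lowest NCD library and HCD replicate 3 the highest HCD library, and they did not overlap. Ndufb5 passed on both scales, at -0.77 ± 0.15 (adjusted p = 0.00323) and -0.59 ± 0.13 (adjusted p = 0.00836). The annotation has Mrpl47 overlapping Ndufb5 over 216 bases, and without a known strand setting the fragments there cannot be told apart. Ndufs4 (chr13:114287795-114388258, minus strand), whose loss in people causes Leigh syndrome, measured 68.4, 48.1, 50.2, 53.0 and 45.1 FPKM in NCD replicates 1 to 5 and 29.4, 35.0, 36.4, 38.8 and 27.2 FPKM in HCD replicates 1 to 5. It fell by -0.65 ± 0.14 as deposited (adjusted p = 0.00596) and by -0.48 ± 0.13 after rescaling (adjusted p = 0.0243), the latter call being lost without NCD replicate 1, NCD replicate 3 or HCD replicate 5 (highest adjusted p = 0.0674).

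Ndufa9, which sits near the ubiquinone site, went from 151 ± 31.3 FPKM in NCD to 90.3 ± 10.9 FPKM in HCD without overlap. Its difference was -0.72 ± 0.15 as deposited (adjusted p = 0.00449) and -0.55 ± 0.15 after rescaling (adjusted p = 0.0203), with the rescaled call lost without NCD replicate 1 or NCD replicate 3 (highest adjusted p = 0.0578). Ndufa12, which joins late in assembly, went from 138 ± 23.1 FPKM in NCD to 78.0 ± 24.3 FPKM in HCD, where HCD replicates 2 and 3 (111 and 96.4 FPKM) were above the other 3 HCD libraries (56.3 to 65.0 FPKM). It passed on both scales, at -0.86 ± 0.19 (adjusted p = 0.00579) and -0.69 ± 0.18 (adjusted p = 0.0197), the second being lost without NCD replicate 1 (adjusted p = 0.0561). A pseudogene on chromosome 5, Gm15920, is 99.5% identical to Ndufa12 over 402 bases.

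Ndufa5, a matrix-arm subunit, was lower by -0.68 ± 0.17 as deposited (adjusted p = 0.00938) and by -0.52 ± 0.16 after rescaling (adjusted p = 0.0371), where leaving out any of 6 libraries (NCD replicates 1, 4 and 5, HCD replicates 2, 4 and 5) lost the call. Ndufb10, a membrane-arm subunit, passed as deposited only, at -0.56 ± 0.13 (adjusted p = 0.00885) and -0.38 ± 0.13 (adjusted p = 0.0555). After rescaling it passed as well once HCD replicate 1 was left out (adjusted p = 0.0236).

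At the other end stood accessory subunits whose groups overlapped fully. Ndufb7 (chr8:83566671-83571626, plus strand), on the outer face of the membrane arm, measured 234, 263, 153, 289 and 219.8 FPKM in NCD replicates 1 to 5 and 265, 179, 212, 245 and 192 FPKM in HCD replicates 1 to 5. The highest and the lowest of its 10 values were both NCD libraries, and its difference was -0.07 ± 0.17 as deposited (adjusted p = 0.801) and 0.10 ± 0.16 after rescaling (adjusted p = 0.715). Ndufa2, a matrix-arm subunit, measured 66.3 to 131 FPKM in NCD and 74.5 to 119 FPKM in HCD, and Ndufa13, also known as GRIM-19, 60.3 to 114 and 70.2 to 109 FPKM. Their differences of -0.13 ± 0.18 and -0.13 ± 0.18 as deposited missed the threshold (adjusted p = 0.643 and 0.627). NCD replicate 3 was the lowest of the 5 NCD libraries for Ndufb7, Ndufa2 and Ndufa13 alike, and the lowest in the summed nuclear subunits.

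The size of the difference varied among nuclear subunits with the annotated length of their longest transcript, which need not be the one expressed. Across the 36 genes, the Spearman correlation of the difference as deposited with the length of the transcript taken for each gene, the longest that GENCODE M21 annotates as protein-coding, was -0.37, and with its GC content 0.35, while over 9741 rows with such a transcript it was 0.13 and 0.11. The 18 shorter genes (419 to 971 bases) had a median difference of -0.34 and 6 called lower, the 18 longer genes (983 to 4371 bases) a median of -0.51 and 13 called lower. Among all rows tested 19.2% were called lower as deposited, and their median difference was -0.19. Level showed no such relation across the 36 genes, at 0.02, while over the 9741 rows its correlation was -0.23. These are descriptions across genes that share the same libraries, and genes are not independent replicates.

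Promoters of the nuclear members were searched for letters known from respiratory genes, in 300-base windows from 250 bases before to 50 after the start site (RefSeq, GRCm38.p6), on both strands. The windows were found for 32 of 36 nuclear subunits and 7 of 8 assembly factors. GCGCATGCG, a form of the site of nuclear respiratory factor 1, was in 2 of 32 nuclear subunits and in 1.95% of 27025 genes, and CCGGAAG, a core of the ETS family site that GABP binds, in 4 of 32 and in 9.93% of genes. AAGATGGCG, a form of the site of YY1 that can itself hold the start codon, was in 5 of 32 nuclear subunits (Ndufs7, Ndufa9, Ndufc1, Ndufs4 and Ndufs6) and in 1.64% of genes. Among assembly factors the counts were 2, 2 and 1 of 7. The first motif reads almost the same on both strands, and a gene with matches on both is counted once. No match overlaps one of another motif in the stretches below, and a match is a description, not a site. They are shown for Ndufs7 and Ndufa9, which fell on both scales, for Ndufc1, which did not pass, and for Ndufs3, which holds the ETS letters on each strand, all on the strand of the gene with the matched letters in capitals. The stretches are, in this order, chr10:80249463-80249491, chr6:126849097-126849125, chr3:51408915-51408943 and chr2:90904732-90904758.
Ndufs7, YY1 letters: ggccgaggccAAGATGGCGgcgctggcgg
Ndufa9, YY1 letters: attgtgggagAAGATGGCGgccgccgtcc
Ndufc1, YY1 letters: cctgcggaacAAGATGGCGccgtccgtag
Ndufs3, ETS letters: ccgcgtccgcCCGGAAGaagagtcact
The YY1 letters begin 24, 29 and 22 bases after the start site in Ndufs7, Ndufa9 and Ndufc1, and the ETS letters 27 bases before it in Ndufs3. Of the 5 members with the YY1 letters, 3 passed as lower on both scales (Ndufs7, Ndufa9 and Ndufs4) and 2 on neither (Ndufc1 and Ndufs6). Among all 36 nuclear subunits 19 passed as lower as deposited and 9 after rescaling, and among all rows tested 19.2% and 8.34%. A link between the letters and the differences was not tested.

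Assembly factors are not part of the finished enzyme and were expressed at far lower levels. The 8 Ndufaf mRNAs summed to 79.3 to 97.0 FPKM in NCD and 56.0 to 79.1 FPKM in HCD, and all but Ndufaf3 and Ndufaf8 had group means under 10 FPKM. As deposited 2 of 8 passed as lower, Ndufaf4 and Ndufaf6, after rescaling 0 did, and for none were all HCD libraries below all NCD libraries. The share called lower as deposited was near the 19.2% of all rows, and 8.34% of all rows passed as lower after rescaling. Their median difference was -0.45 as deposited and -0.29 after rescaling, close to that of the nuclear subunits, and the difference was below 0 in 8 of 8 as deposited and after quantile normalization and in 7 after rescaling. Of all 10321 rows tested, 7029 were below 0 as deposited and 5700 after rescaling. The count of 2 became 0 when NCD replicate 1 or 3 was left out, and 1 without NCD replicate 4, NCD replicate 5, HCD replicate 1 or HCD replicate 5. Over all rows, leaving out NCD replicate 1 or 3 took the lower calls as deposited from 1982 to 1319 and 1361.

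Ndufaf4, which helps to build the ubiquinone-side part together with Ndufaf3, measured 5.29, 2.82, 6.01, 3.44 and 4.64 FPKM in NCD replicates 1 to 5 and 2.04, 3.01, 2.31, 2.70 and 1.37 FPKM in HCD replicates 1 to 5. NCD replicate 2 fell within the HCD range, and the difference of -0.72 ± 0.22 passed as deposited (adjusted p = 0.0258) but not after rescaling (-0.59 ± 0.22, adjusted p = 0.0872). Ndufaf6, needed for the insertion of mt-Nd1, measured 9.15, 6.36, 9.66, 10.3 and 6.54 FPKM in NCD replicates 1 to 5 and 4.56, 2.04, 4.08, 4.86 and 7.32 FPKM in HCD replicates 1 to 5. HCD replicate 5 was above NCD replicates 2 and 5, and the difference was -0.80 ± 0.24 as deposited (adjusted p = 0.0267) and -0.66 ± 0.25 after rescaling (adjusted p = 0.0805).

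The remaining assembly factors did not pass on either scale. Ndufaf7, a mitochondrial arginine methyltransferase, measured 6.65, 2.84, 6.93, 3.95 and 5.51 FPKM in NCD replicates 1 to 5 and 2.76, 2.97, 2.53, 2.72 and 4.83 FPKM in HCD replicates 1 to 5. HCD replicate 5 was the highest HCD library by a wide gap and NCD replicate 2 was within the range of the other HCD libraries, with a difference of -0.54 ± 0.23 (adjusted p = 0.0965). Ndufaf5, which hydroxylates an arginine of Ndufs7, had a difference of -0.46 ± 0.17 (adjusted p = 0.0643), and Ndufaf8, its partner, of -0.34 ± 0.21 (adjusted p = 0.243). Ndufaf3 stood at -0.43 ± 0.21 (adjusted p = 0.141) and Ndufaf1, a factor of the early membrane arm, at -0.35 ± 0.23 (adjusted p = 0.270). Ndufaf2, which holds the place of Ndufa12 during assembly, had the smallest difference of the 8, -0.12 ± 0.29 (adjusted p = 0.784), while Ndufa12 itself fell.

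Of 13 further assembly factors of complex I whose symbols do not start with Nduf all but Coa1 had a row, 12 in number. As deposited 9 of 12 passed as lower, against 19.2% of all rows. After rescaling 1 did, a share close to the 8.34% of all rows. Their median differences were -0.62 and -0.47, against -0.19 and -0.05 over all rows tested. Ecsit, a factor of the membrane arm that works with Ndufaf1, passed on both scales, from 39.6 ± 2.64 to 24.9 ± 3.80 FPKM (adjusted p = 0.00356 as deposited and 0.0243 after rescaling). Dmac2 (61.1 ± 6.82 to 42.8 ± 4.56 FPKM) and Chchd4 (8.00 ± 1.48 to 4.82 ± 0.22 FPKM), which imports proteins of the intermembrane space, passed as deposited only (adjusted p = 0.00991 and 0.0126).

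Ndufa4, given apart, measured 657, 513, 441, 577 and 417 FPKM in NCD replicates 1 to 5 and 314, 283, 468, 382 and 282 FPKM in HCD replicates 1 to 5. HCD replicate 3 lay above NCD replicates 3 and 5, and the difference passed as deposited (-0.60 ± 0.17, adjusted p = 0.0212) but not after rescaling (-0.42 ± 0.15, adjusted p = 0.0582).

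Nuclear subunits of the other respiratory complexes were also lower where they passed, and none passed as higher on either scale. Their differences were all below 0 as deposited, with 1 of 15 above 0 in complex V after rescaling, and 1 of 11 in complex IV and 3 of 15 in complex V after quantile normalization. Of all 10321 rows tested, 7029 were below 0 as deposited and 5700 after rescaling. In complex II, 3 of 4 passed as lower as deposited and 1 after rescaling, in complex III 4 and 2 of 9, in complex IV 4 and 1 of 11, and in complex V 9 and 5 of 15. Among all rows 19.2% and 8.34% passed as lower, and the rescaled count of complex IV was close to that share. Their median differences as deposited were -0.54, -0.39, -0.38 and -0.48, around the -0.42 of complex I. Uqcrc2 of complex III fell from 264 ± 54.7 to 154 ± 28.7 FPKM (adjusted p = 0.00493), Cox5a of complex IV from 712 ± 96.2 to 439 ± 67.8 FPKM (adjusted p = 0.00387) and Atp5g3, a ring subunit of ATP synthase, from 2127 ± 263 to 1342 ± 156 FPKM (adjusted p = 0.00567). The next smallest p in each list belonged to Uqcrfs1 and Cyc1, Cox7a2 and Cox6c, and Atp5a1 and Atp5g2. These passed as lower as deposited, as did Sdhc, Sdhd and Sdha of complex II, with adjusted p between 0.00634 and 0.0394.

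Of the genes that make or keep mitochondrial mRNA, none passed as higher alongside the mt-Nd members. Of 15 tested, 3 passed as lower as deposited, 2 after rescaling and 0 as higher. Among all rows tested 19.2% and 8.34% passed as lower, so that the list's count as deposited was close to the background and only single genes are described. Polrmt, the mitochondrial RNA polymerase, went from 20.8 ± 0.90 to 12.6 ± 1.96 FPKM (adjusted p = 0.00292 as deposited and 0.0181 after rescaling), and Top1mt, the mitochondrial topoisomerase, from 3.11 ± 0.74 to 1.04 ± 0.60 FPKM (adjusted p = 0.00716 and 0.0197). Both had every HCD library below every NCD library. Lrpprc, which binds and protects mitochondrial mRNAs, passed as deposited only (4.33 ± 0.96 to 2.19 ± 0.99 FPKM, adjusted p = 0.0235 and 0.0833). Of 8 tested nuclear regulators of respiratory genes, 1 passed, a share below that background as deposited, Pprc1, a coactivator related to PGC-1α, which was lower (4.48 ± 0.97 to 2.16 ± 0.89 FPKM, adjusted p = 0.0135 and 0.0494). Ppargc1b (3.92 ± 0.93 and 2.76 ± 0.91 FPKM) and Nrf1 (10.2 ± 1.81 and 7.81 ± 2.12 FPKM) did not pass (adjusted p = 0.177 and 0.179 as deposited).

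The split of the nuclear calls by run of replicate numbers was uneven. Within replicates 1 to 3 alone 6 of 36 nuclear subunits passed as lower as deposited and 3 after rescaling, with medians of -0.37 and -0.18. Within replicates 4 and 5 alone 1 passed on each scale, with medians of -0.54 and -0.40. Over all 10321 rows, 1006 and 329 passed as lower in the first run (as deposited and rescaled), and 11 and 15 in the second. The medians of the nuclear subunits had the same sign in both runs, and the smaller number of libraries in each lowers what can pass. Leaving out NCD replicate 1 took the rescaled count from 9 to 4, and the remaining single omissions gave 7 to 10. Over all rows the omission of NCD replicate 1 took the lower calls after rescaling from 861 to 445, and the remaining single omissions gave 435 to 936.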

How the data were processed

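Messenger RNA was sequenced in 10 libraries of mouse small-intestinal epithelial cells, 5 NCD and 5 HCD, grouped by title. The deposited values are FPKM, scaled by the authors to transcript length and library. The submitters' processing notes name HISAT2, StringTie, DESeq2, edgeR and the build GRCm38, with neither roles nor versions, and the annotation is, like the strand setting, not given in the sources used here. Per the labels' protocols, the extraction text names a plant RNA kit and TRIzol, and mRNA was selected with poly-T beads. Depth is unknown, so no counting interval is given.

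The 10321 rows averaging at least 1 FPKM across the libraries were fitted as log2(FPKM + 1) with limma 3.58.1 in R 4.3.3 (lmFit, eBayes with trend, two-sided, Benjamini-Hochberg over all rows, threshold 0.05). This scale understates changes of low genes. For the rescaled comparison each library was divided by its summed FPKM over genes whose symbol does not start with mt-, times the mean of those sums, with the same rows tested. The fit was tested on simulated data. All 53 members matched GENCODE M21 by identifier, which supplied GRCm38 coordinates and transcripts, and 40 matched a RefSeq promoter. Near copies were searched with blastn 2.17.0.

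Members and lists were chosen with earlier results of these data known. Named with values are the mt-Nd members, nuclear core subunits and Ndufaf rows (1 member, kept in counts and sums, is not reported here), the 8 accessory subunits with the smallest and the 3 with the largest p, and the 3 smallest p of each further list. Other names (Ndufa3, Ndufb9, Ndufc1, Ndufs6, Ndufa4 and marker genes) were added after their values were seen. Alternatives were another pseudocount, no filter, quantile normalization, TPM, a replicate block, no trend, each library left out, and each run of replicate numbers alone.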

Additional observations from a re-analysis of the deposited data

Results flagged for a closer look

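In 4 of 88 groups of 5 libraries examined, a single library lay far from the other 4 of its group by Dixon's test, and chance gives about 1 in 20. mt-Nd3 stood at 3138 FPKM in HCD replicate 1, against 489.8 to 682 FPKM in the other HCD libraries, and took 1.68% of the mitochondrially encoded mRNA there, against 0.527% to 0.753%. Ndufs8 stood at 192 FPKM in HCD replicate 4, against 151 to 159 FPKM in the others. Ndufaf7 stood at 4.83 FPKM in HCD replicate 5, against 2.53 to 2.97 FPKM in the others.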

How the results depend on the processing

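All 7 mt-Nd members passed as higher under each alternative run, except that 6 did as deposited with replicates 4 and 5 alone, where their median difference was 1.68 in place of 2.12. The number of nuclear subunits lower as deposited (19) was 7 after quantile normalization, which moved their median from -0.42 to -0.16. Over all rows the same setting took the lower calls from 1982 to 883 of 10321 and the median from -0.19 to -0.06. The count of 19 was 6 with replicates 1 to 3 alone and 1 with replicates 4 and 5 alone (1006 and 11 over all rows). With single libraries left out it was 16 to 23 (1319 to 2036 over all rows). After rescaling the count of 9 was 3 and 1 in those runs of replicate numbers (329 and 15 over all rows). With single libraries left out it was 4 to 10 (435 to 936 over all rows), 4 being without NCD replicate 1 (445 over all rows). The Ndufaf count (2) was 0 with no filter on low values or with replicates 4 and 5 alone, 1 after quantile normalization or with replicates 1 to 3 alone, and 0 to 3 with single libraries left out. With no filter the lower calls over all rows went from 1982 of 10321 to 1513 of 18440. The runs hold fewer libraries, and the cause was not tested. The difference of the log2 ratio between genomes kept its sign and moved by less than its spread under every alternative that applies to it. For single named members, results as deposited kept their side of the threshold in 541 cases, lost the call in 47 and gained it in 6, and after rescaling these counts were 523, 33 and 5. The sign changed in 8 and 15 cases, all of them for Ndufa13, Ndufa2, Ndufaf2 and Ndufb7, which did not pass.

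Replicate numbers are not stated to pair the libraries. The deviations of same-numbered libraries correlated at 0.22, -0.24, -0.20, 0.01 and 0.10, and only replicate 1 matched its own number best. Such correlations cannot show whether libraries were paired in the design. With the replicate block, 17 nuclear subunits were lower as deposited and 8 after rescaling, and 1 Ndufaf member as deposited. Over all 10321 rows this setting gave 1620 lower calls as deposited and 669 after rescaling. TPM was not run for the rescaled results, being the same up to a constant, and the pseudocount, filter, quantile, TPM and trend settings do not apply to the ratio of sums. Depth is unknown, and Top1mt lay near the filter of 1 FPKM in HCD.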
